A study of Drosophila melanogaster with 6 samples.

Results

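The Spalt genes salm and salr, the Knirps genes kni and knrl, and ab are transcription factor genes that place and shape veins in the Drosophila melanogaster wing. Their probe sets were taken as all those annotated with 1 of these 5 gene symbols alone, which gave 4 probe sets of 14010 on the array, a single one each for salm, salr, kni and knrl. No probe set carried ab, by symbol or by gene ID, and its level was not analysed here. The arrays were Affymetrix Drosophila expression arrays, hybridised with targets from about 8 ug of total RNA. The RNA came from wing imaginal discs of wild-type larvae in the last larval instar, dissected so that body wall (3 arrays) and wing/hinge (3 arrays) were measured apart. This disc is the larval precursor of the adult wing, its hinge and the dorsal thorax, and the labels describe the samples as biological replicates of a screen for transcripts with restricted positions. No strain name, allele or treatment distinguishes the fragments in the labels.

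In the wing pouch, Hedgehog signalling from the posterior compartment switches on the ligand gene dpp along the compartment border, and Dpp signalling in turn switches on the zinc finger genes salm and salr in a broad central domain. The edge of that domain sets where kni and knrl, which encode orphan members of the nuclear receptor superfamily, are expressed as a stripe that prefigures the second longitudinal vein. The gene ab, a BTB zinc finger gene, does the same for the fifth vein. The Spalt genes also act outside the pouch, among other places in the patterning of sensory bristles on the thorax, and both gene pairs act in the branching of the embryonic trachea.

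None of the 4 genes passed the test between the fragments. The mean levels of salm and salr were 513.9 and 490.4 in body wall, against 531.5 and 565.2 in wing/hinge, while those of kni and knrl were 263.6 and 118.2 in body wall, against 399.2 and 172.2 in wing/hinge, with overlapping values in each case. By contrast the pouch gene nub averaged 93.97 in body wall and 2039 in wing/hinge. At an adjusted p under 0.05, 0 of 4 were called in limma, which fits a linear model with a moderated variance to each probe set, where 0.915% of the 11698 probe sets tested were called. At an unadjusted p under 0.05 the count was also 0 of 4. All 4 probe sets lay above the intensity floor of 20.4 on every array, so all passed the filter on low values. In 0 of 4 did the fragments not overlap, against 15.0% of all probe sets tested, of which 8.48% lay wholly higher in body wall and 6.53% wholly higher in wing/hinge. RNA from whole fragments cannot tell fewer expressing cells from less RNA per cell.

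The fragments themselves matched their labels by their defining genes, which were listed with earlier results of these data known. Of 5 notum markers tested, 4 were higher in body wall (limma adjusted p under 0.05), and so were 4 of 4 markers of adult muscle precursors, while 4 of 5 wing pouch markers were higher in wing/hinge. Summed over the notum markers the intensity was 2214 to 2705 in body wall and 220.3 to 452.1 in wing/hinge, and over the pouch markers 782.2 to 1090 in body wall and 6230 to 7069 in wing/hinge. A split seen in the data alone also divides the arrays. In the wide-range set (body wall 1 with wing/hinge 1 and 2) the brightest probe set measured 24976 to 36735, and in the narrow-range set (body wall 2 and 3 with wing/hinge 3) 11473 to 14881. For actin, the control probe set at the 3' end was 1.92 to 2.98 times as bright as that at the 5' end in the wide-range set, and 1.12 to 1.28 times in the narrow-range set.

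The gene salm encodes a zinc finger repressor of the Spalt family. Its intensity was 359.6, 531.2 and 650.9 in body wall 1, 2 and 3, against 376.1, 392.3 and 826.1 in wing/hinge 1, 2 and 3. The lowest value came from body wall and the highest from wing/hinge, and the fragments overlapped. Means were 513.9 ± 146.4 in body wall, against 531.5 ± 255.3 in wing/hinge (mean ± SD, 3 arrays each). The log2 difference, body wall minus wing/hinge, was 0.01 (adjusted p = 0.997 in limma, SE 0.40), a ratio of 1.01 with a 95% interval from 0.524 to 1.93. That interval leaves out a 2-fold difference in either direction, though over the alternative fits it widened to at most 2.42-fold toward wing/hinge and 2.43-fold toward body wall.

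The salm values fell in order by the set of arrays. On the 3 narrow-range arrays salm measured 531.2, 650.9 and 826.1, and on the 3 wide-range arrays 359.6, 376.1 and 392.3, with no overlap whichever fragment was on the array. The share of all probe sets that separate by set is not given here, so this only describes salm. In a limma fit with the set as a block, salm was lower on the wide-range arrays by a log2 difference of -0.91 (SE 0.24), which did not pass after adjustment over all probe sets (limma adjusted p = 0.375). Within the narrow set the difference between body wall and wing/hinge was -0.49, and within the wide set -0.10. The block fit gave -0.29 (adjusted p = 0.745 in limma, SE 0.24), with a 95% interval from -0.88 to 0.29. The sign of the salm difference thus turned with the set taken into account, and its interval held 0 either way.

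The other Spalt gene, salr, is the neighbour of salm in the RefSeq gene table of assembly Release 6, with 0 protein-coding genes between them, and encodes a closely related zinc finger protein. It measured 567.6, 415.0 and 488.5 in body wall 1, 2 and 3, against 546.9, 442.2 and 706.6 in wing/hinge 1, 2 and 3. Only wing/hinge 3 stood above the body wall values, and the other wing/hinge arrays fell among them. Means were 490.4 ± 76.3 in body wall, against 565.2 ± 133.2 in wing/hinge (mean ± SD, 3 arrays each). The log2 difference was -0.19 (adjusted p = 0.898 in limma, SE 0.27), a body wall level 0.876 times that of wing/hinge with a 95% interval from 0.563 to 1.36. Within the narrow set the difference was -0.65 and within the wide set 0.21, so it changed sign between the sets.

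Across the 6 arrays the log2 intensities of salm and salr had a Pearson correlation of 0.37, a description over arrays that share fragments and scaling. The log2 ratio of salm to salr differed between the fragments by 0.20 (exact permutation test over arrays, two-sided, p = 0.6). By array this ratio was -0.66, 0.36 and 0.41 in body wall, against -0.54, -0.17 and 0.23 in wing/hinge. Each narrow-range value of this ratio lay above each wide-range value, in either fragment, which was seen in the values and not tested.

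**Figure D1:**
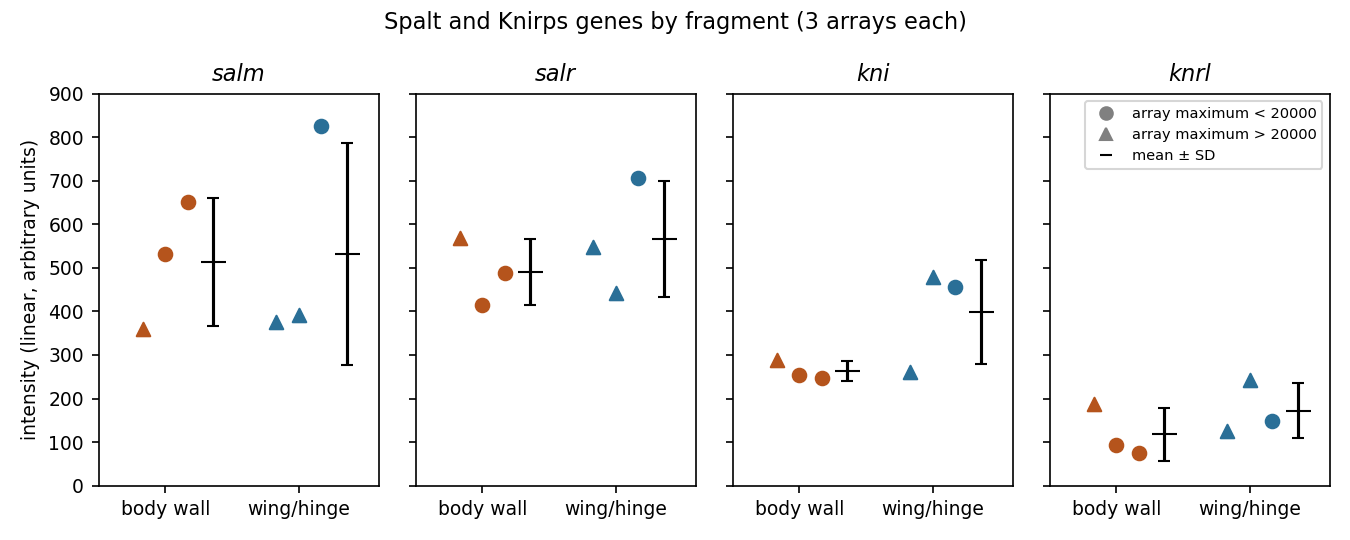
Intensity (linear scale, arbitrary units) of salm, salr, kni and knrl on each array, body wall left of wing/hinge, with circles for the 3 arrays whose brightest value stayed under 20000 and triangles for the 3 above it. Black bars give the mean and SD of 3 arrays. The fragments overlap in all 4 genes, and the circles of salm (531.2 to 826.1) all lie above its triangles (359.6 to 392.3).

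The gene kni encodes a zinc finger protein of the nuclear receptor superfamily, known also as a gap gene of the embryo. It measured 289.1, 254.6 and 247.2 in body wall 1, 2 and 3, against 261.9, 479.7 and 456.1 in wing/hinge 1, 2 and 3. The body wall arrays were close together, wing/hinge 2 and 3 stood well above them, and wing/hinge 1 lay among them. Means were 263.6 ± 22.4 in body wall, against 399.2 ± 119.5 in wing/hinge (mean ± SD, 3 arrays each), a log2 difference of -0.55 (adjusted p = 0.686 in limma, SE 0.30). The wing/hinge level was 1.47 times that of body wall, with a 95% interval from 0.898 to 2.39. Of the 4 genes this had the smallest unadjusted p (0.107), which 15.5% of all probe sets tested matched or went below. Within the sets the difference was -0.86 for the narrow range and -0.29 for the wide range, the same sign in both. The single array wing/hinge 1 held much of the spread. Without it the log2 difference of kni was -0.83, with an unadjusted 95% interval from -1.43 to -0.23 that left out 0, and still did not pass over all probe sets (limma adjusted p = 0.412).

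The related gene knrl, which acts together with kni in vein formation, lay nearest to background. It measured 187.4, 92.6 and 74.5 in body wall 1, 2 and 3, against 125.0, 243.5 and 148.0 in wing/hinge 1, 2 and 3. Body wall 1 lay above a pair of the wing/hinge arrays, and body wall 2 and 3 lay below all of them. The 23 probe sets on the array for RNA of bacteria, mouse and yeast reached at most 91.8, taken here as the end of the background range. Their 95th percentile was 55.1. Body wall 3 fell within that range, though above this percentile, and body wall 2 at its edge. Means were 118.2 ± 60.6 in body wall, against 172.2 ± 62.8 in wing/hinge (mean ± SD, 3 arrays each). The log2 difference was -0.60 (adjusted p = 0.779 in limma, SE 0.43), and the wing/hinge level was 1.52 times that of body wall with a 95% interval from 0.749 to 3.07.

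For knrl the array set again moved with the value. Within the narrow set the difference was -0.83 and within the wide set 0.10, and the block fit gave -0.37 (adjusted p = 0.809 in limma, SE 0.39). The wide-range arrays ran higher by 0.71 (adjusted p = 0.613 in limma, SE 0.39), the opposite direction to salm. Body wall 1 was the array on which the value of knrl rested most. Without it the log2 difference of knrl was -0.99, against -0.60 with all 6 arrays, and the unadjusted 95% interval from -1.89 to -0.09 left out 0 (limma adjusted p = 0.563).

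The log2 intensities of kni and knrl had a Pearson correlation of 0.74 over the 6 arrays, given as a description. The log2 ratio of kni to knrl differed between the fragments by 0.05 (exact permutation test over arrays, two-sided, p = 0.9). A single protein-coding gene, CG13251, lies between them in that RefSeq table, and its probe set stayed at or under the floor on every array. None of the other nearby genes with a tested probe set was called. Osi21, on the far side of salr, gave a log2 difference of 0.85 (limma adjusted p = 0.656), and Rcd2, beyond knrl, 1.06 (limma adjusted p = 0.135). The wing/hinge values of Rcd2 (2.3, 4.1 and 10.5) were all under the floor, so its difference depends on the floor. Its body wall values (35 to 47.7) lay within the background range. CG13250 and cmpy gave 0.00 and -0.19. The neighbours were looked up after the values of the 4 genes had been seen.

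**Figure D2:**
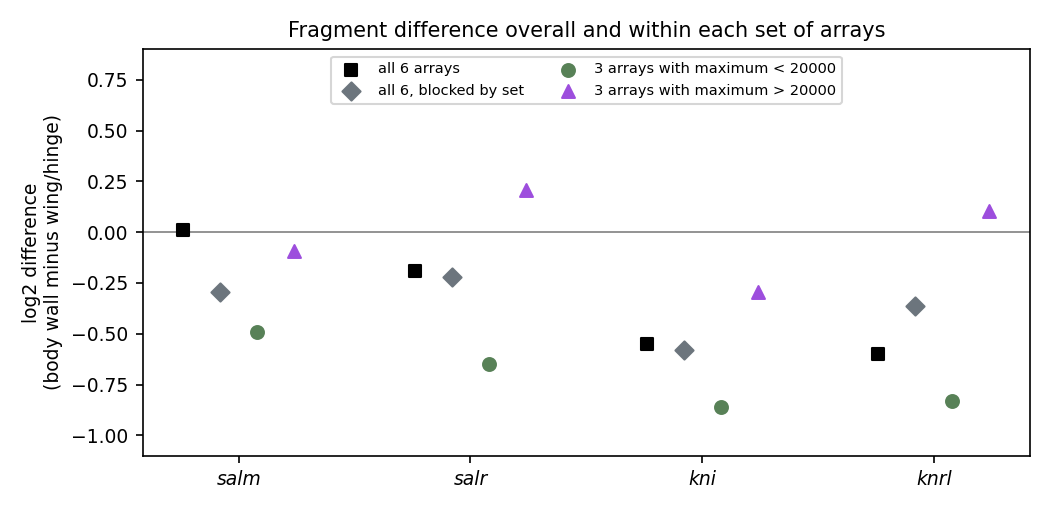
Log2 difference, body wall minus wing/hinge, of the 4 genes in all 6 arrays (squares), in the fit blocked by array set (diamonds), and within the 3 arrays with a brightest value under 20000 (circles) or above it (triangles). Within the first set all 4 genes lie below 0, from -0.86 for kni to -0.49 for salm, and within the second they run from -0.29 for kni to 0.21 for salr.

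Ordered by their log2 difference, the 4 genes ran salm, salr, kni, knrl, from 0.01 to -0.60. The 95% interval of each held the estimates of the other 3, so the order among them is not settled. All 4 were lower in body wall within the narrow set, where wing/hinge is held by the single array wing/hinge 3 and body wall by 2 arrays. Each set holds 1 fragment on a single array, so the values within sets have no test.

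Each of the 4 genes was then set against 3 genes that mark the wing, as the change in their log2 ratio between the fragments. The POU factor gene nub, expressed across the wing pouch, measured 103.8, 92.3 and 85.8 in body wall 1, 2 and 3, against 1333, 1910 and 2875 in wing/hinge 1, 2 and 3. Its log2 difference was -4.37 (SE 0.32; limma adjusted p = 0.00342), a wing/hinge level about 20.7 times that of body wall as measured, with the body wall values at the edge of the background range that ended at 91.8. The T-box gene bi, like the Spalt genes a target of Dpp signalling in the pouch, measured 44.2, 83.3 and 50.7 in body wall, against 320.1, 354.1 and 289.6 in wing/hinge (log2 difference -2.49, SE 0.30; limma adjusted p = 0.0191). All its body wall values lay within the background range that ended at 91.8, so neither this difference nor a ratio to bi is an exact fold. The call of bi held in 1 of 6 fits with 1 array left out and ended with the set as a block (limma adjusted p = 0.0574). The wing selector gene vg measured 882.8, 661.3 and 657.0 in body wall, against 1348, 1978 and 1463 in wing/hinge, and its difference of -1.12 (SE 0.26) did not pass (limma adjusted p = 0.174). For each of these 3 genes, every body wall value lay below every wing/hinge value.

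The ratio to nub was higher in body wall for each of the 4 genes, by a log2 difference of 4.38 for salm, 4.18 for salr, 3.82 for kni and 3.77 for knrl. In every case the 3 body wall ratios lay above the 3 wing/hinge ratios (exact permutation test over arrays, two-sided, p = 0.1, the smallest that 3 against 3 allows; 0.12 adjusted over the 12 ratios tested). The ratio to bi was higher in body wall by 2.50 for salm, 2.30 for salr, 1.93 for kni and 1.89 for knrl, again with no overlap (exact permutation p = 0.1; 0.12 adjusted). These gaps are mostly the differences of nub (-4.37) and bi (-2.49) themselves, which were known to differ between the fragments when they were picked, and the body wall values of both lie in or near the background range.

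Against vg the gaps were smaller. The ratio was higher in body wall by 1.13 for salm and 0.52 for knrl, where the fragments overlapped (exact permutation p = 0.2 for each, and 0.2 adjusted over the 12). It was higher by 0.93 for salr and 0.56 for kni without overlap (exact permutation p = 0.1; 0.12 adjusted). The kni ratio to vg in particular ranged from -1.61 to -1.38 in body wall and from -2.36 to -1.68 in wing/hinge on the log2 scale. As with nub and bi, the gaps against vg hold the difference of vg itself (-1.12). This gene too was picked with earlier results of these data known.

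**Figure D3:**
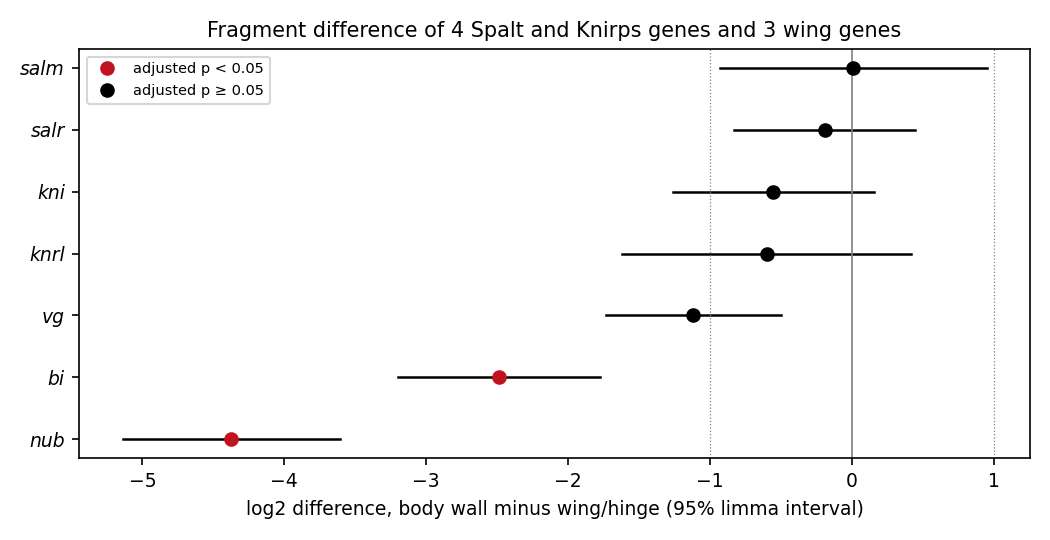
Log2 difference, body wall minus wing/hinge, of salm, salr, kni, knrl and the wing genes vg, bi and nub, with the 95% interval of the limma fit as a line. Dotted lines mark a 2-fold difference and red marks an adjusted p under 0.05. The intervals of the 4 upper genes all cross 0, and those of bi and nub lie wholly beyond a 2-fold difference toward wing/hinge.

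Of 17 listed Hedgehog and Dpp genes, 16 were tested. Of these 0 were called toward body wall and 1 toward wing/hinge, namely bi, which was listed as another Dpp target. The other 15 did not pass. The median log2 difference of the 16 was -0.29, beside 0.03 over all probe sets tested, of which 0.325% were called higher in wing/hinge. Without overlap, 7 of the 16 lay higher in wing/hinge and 1 higher in body wall, against 6.53% and 8.48% of all probe sets tested. The list was chosen with earlier results of these data known. The largest uncalled differences toward wing/hinge were those of the posterior compartment genes inv at -1.12 (268.8 ± 24.9 in body wall, against 590.9 ± 132.3 in wing/hinge, mean ± SD of 3 arrays; limma adjusted p = 0.159), en at -1.05 and the ligand gene hh at -1.01. Toward body wall the largest were ci, the transcription factor of the Hedgehog pathway, at 0.54, the Smad gene Med at 0.19 and the ligand gene dpp at 0.08. The ligand gene dpp itself measured 301.6 ± 81.8 in body wall, against 285.3 ± 79.4 in wing/hinge (mean ± SD, 3 arrays each), with an adjusted p of 0.971 in limma.

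The other wing vein genes gave 22 tested of 28 listed, of which 0 were called toward body wall, 2 toward wing/hinge and 20 not at all. Of all probe sets tested, 0.590% were called toward body wall and 0.325% toward wing/hinge. The list median was 0.06, beside 0.03 over all probe sets tested. The COE factor gene kn, which acts in the intervein region between the central longitudinal veins, measured 12.2 ± 12.9 in body wall, against 352.8 ± 46.6 in wing/hinge (mean ± SD, 3 arrays each), a log2 difference of -3.97 (adjusted p = 0.00154 in limma, SE 0.24). The POU gene vvl, needed for vein differentiation, measured 180.4 ± 17.9 in body wall, against 651.3 ± 107.5 in wing/hinge (mean ± SD, 3 arrays each), a difference of -1.84 (adjusted p = 0.0224 in limma, SE 0.23). Of the 3 body wall values of kn, 2 lay at or under the floor, so its difference is understated. The call of kn held with each array left out, and that of vvl ended with any 1 left out (limma adjusted p 0.0711 to 0.110) and with the set as a block (limma adjusted p = 0.0611).

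Uncalled vein genes went in both directions. The brighter probe set of the cofactor gene nab gave -3.10 (limma adjusted p = 0.0730), while its dimmer one was called toward wing/hinge (limma adjusted p = 0.0106). The bHLH gene net, which represses vein fate, gave -0.71, and the EGF receptor gene Egfr -0.45. Toward body wall the largest were bs, the serum response factor gene of intervein cells, at 0.87, and the Iroquois genes caup at 0.69 and ara at 0.66. The vein genes rho, vn, N, Ser, ru and sog were not tested, and neither was the Dpp repressor brk.

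**Figure D4:**
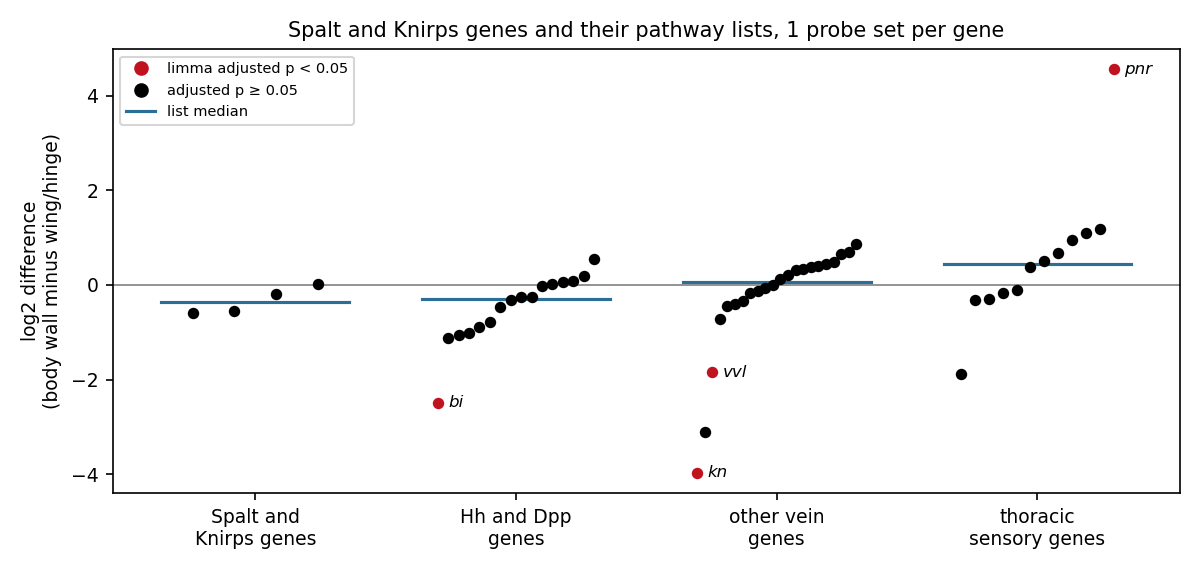
Log2 difference, body wall minus wing/hinge, of the 4 Spalt and Knirps genes, 16 Hedgehog and Dpp genes, 22 other vein genes and 12 thoracic sensory genes, 1 point per gene, with blue lines at the medians and red points for a limma adjusted p under 0.05. The called genes are bi, kn and vvl toward wing/hinge and pnr toward body wall.

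The Spalt genes also act in the thorax, so genes of sensory bristle patterning were listed with eg, the remaining gene of the Knirps family. All 12 listed were tested, of which 1 was called toward body wall, 0 toward wing/hinge and 11 not at all, with a median of 0.44. Beside this, 0.590% of all probe sets were called higher in body wall. The called gene was pnr, a GATA factor gene of the dorsal thorax, at 496.8 ± 143.0 in body wall, against 15.1 ± 8.39 in wing/hinge (mean ± SD, 3 arrays each), with an adjusted p of 0.00161 in limma and 2 of the 3 wing/hinge values at or under the floor. Its cofactor gene ush gave 1.17, and the proneural genes ase and l(1)sc 1.10 and 0.94, without passing. All ase values but that of body wall 1 (93.5) lay within the background range that ended at 91.8. For l(1)sc, wing/hinge 1 measured 18.1, against 88.7 and 103.8 on wing/hinge 2 and 3 and 100.2 to 116.9 in body wall. The largest uncalled differences toward wing/hinge were -1.89 for sens, a zinc finger gene of sensory precursors (limma adjusted p = 0.171), -0.31 for neur and -0.30 for eg. The body wall values of sens (17.6 to 59.2) and neur (45.1 to 71.7) lay within the background range. The eg probe set lay at 9.50, 19.4 and 40.1 in body wall and 44.9, 34.0 and 17.9 in wing/hinge, all within the range of the foreign control probe sets.

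Markers of other cell types were summed on each array. Of 6 tracheal markers tested, 0 were called in either direction, 3 lay higher in body wall without overlap and 1 higher in wing/hinge. Of all probe sets tested, 0.915% were called, 8.48% lay wholly higher in body wall and 6.53% wholly higher in wing/hinge. Among fat body markers 2 of 3, and among haemocyte markers 1 of 4, lay higher in body wall without overlap, and 0 of either in wing/hinge. The summed intensity of the tracheal markers was 7736 to 8676 in body wall and 5092 to 5531 in wing/hinge, most of it from verm and serp. The FGF receptor gene btl, which defines tracheal cells, measured 80.5 ± 42.8 in body wall, against 14.8 ± 3.48 in wing/hinge, at or under the floor on each wing/hinge array. Its difference of 1.82 did not pass (limma adjusted p = 0.180). Body wall 2 and 3 (80.0 and 37.9) lay within the background range that ended at 91.8, and body wall 1 (123.5) above it. The tracheal gene trh was not tested. Adult muscle precursor markers summed to 1665 to 2005 in body wall and 104.6 to 137.9 in wing/hinge. Haemocyte markers summed to 226.2 to 475.6 in body wall and 140.9 to 249.6 in wing/hinge with 0 of 4 called and NimC1 at or under the floor on all arrays, and 0 of 3 fat body markers, 0 of 3 neuron and glia markers and 0 of 1 peripodial marker were called. The summed fat body markers were 847.1 to 1036 in body wall, against 214.4 to 705.1 in wing/hinge, those of neurons and glia 131.5 to 200.6 in body wall and 134.1 to 213.8 in wing/hinge, and the peripodial one 99.9 to 271.1 in body wall and 52.6 to 102.9 in wing/hinge. The part of these cell types in the levels of the 4 genes was not tested.

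The probe sets whose log2 values ran most like each gene over the 6 arrays were picked by Pearson correlation among 10414 others naming 1 gene. For salm they were Clamp (0.99), CG8388 (0.99) and CG11449 (0.99), and 169 probe sets reached 0.9 or more. For salr they were bark (0.98), CG3558 (0.97) and CG31038 (0.97), with 20 at 0.9 or more. For kni they were Psi (0.99), mthl8 (0.98) and kirre (0.98), with 51 at 0.9 or more, and for knrl CG15784 (0.98), jim (0.98) and Ipk1 (0.98), with 72. These are descriptions over 6 arrays that share fragment and scaling, chosen as the highest of all compared. None of the 12 was itself called between the fragments, with log2 differences from -0.87 for CG15784 to 0.14 for CG11449. All values of kirre (9.7 to 53.3) and Ipk1 (23.2 to 75.3) lay within the background range that ended at 91.8. Those of CG8388, CG11449 and CG31038 lay partly within it.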

How the data were processed

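The 6 arrays were grouped by title. The table deposited by the authors gives an intensity on a linear scale for each probe set and array, with trimmed means (2% from each end) of 300.0 to 300.1 throughout. Its summary and scaling software is not given in the sources used here. Intensities below the floor, the 20th percentile of all fly probe sets (20.4), were raised to it before taking log2. Probe sets above it on at least 3 of 6 arrays, 44 control probe sets left out, were tested with limma 3.58.1 in R 4.3.3 (lmFit, eBayes, two-sided, unblocked), and p-values were adjusted over all 11698 by Benjamini-Hochberg. Differences are log2 body wall minus log2 wing/hinge. The 95% intervals come from this fit, unadjusted for the number of probe sets. The number of arrays limits precision. The fit was checked on simulated data without the floor, the filter or the split of the arrays, so these were not checked.

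A platform annotation table named the probe sets, and all 4 gene IDs kept their symbol in the RefSeq table of assembly Release 6. No build is named for the array values, so no coordinates are given. A listed gene was represented by its probe set with the highest mean. Dl and h of the lists appear there as Delta and hry. The text names the 4 genes, called list genes, the 3 largest uncalled differences in each direction per list, nub, bi and vg, cell type markers, and the 3 most similar probe sets per gene. Any other gene was named after its values had been seen. The genes and lists were chosen with earlier results of these data known. The labels do not say whether replicates came from separate dissections, so p-values measure the spread between these samples. Body wall 1 and 2 carry related aliases in the labels and were counted as 2 samples. Alternatives covered scaling, floor, filter, variance model, blocks, averaging of those 2 arrays and left-out arrays.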

Additional observations from a re-analysis of the deposited data

How the results depend on the processing

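None of the 4 genes was called in any of 17 alternatives. The lowest adjusted p over these was 0.745 for salm, 0.830 for salr, 0.412 for kni and 0.563 for knrl. Over the same alternatives salr ran from -0.35 to -0.02, kni from -0.83 to -0.39 and knrl from -0.99 to -0.32. The difference of salm changed sign, to -0.015 with arrays scaled by their 75th percentile, to -0.29 with the block by brightest value, and to -0.04 without body wall 2, -0.18 without body wall 3, -0.19 without wing/hinge 1 and -0.16 without wing/hinge 2. With 1 array left out it ran from -0.19 to 0.38, the highest value coming without wing/hinge 3. The 95% intervals over the alternatives reached at most 2.42-fold toward wing/hinge and 2.43-fold toward body wall for salm. Toward wing/hinge they reached 2.09-fold for salr, 2.79-fold for kni and 3.98-fold for knrl. Toward body wall they reached 1.61-fold for salr, 1.33-fold for kni and 1.73-fold for knrl. These limits are the outer ends of intervals and not estimates of a difference. A difference up to them lay inside the interval of at least 1 alternative. The 12 ratios to nub, bi and vg kept their direction in the 10 alternatives that moved them, while 4 others left each at its value.

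Over all probe sets, calls numbered 107 as reported, 161 with an intensity trend and robust variance, 52 with the block by brightest value, 32 with body wall 1 and 2 averaged, and 31 to 44 with 1 array left out. The Hedgehog and Dpp list gave 0 calls without a filter, with the replicate block and with the block by brightest value, 2 with the trend, and 0 to 1 with 1 array left out. The vein list gave 3 calls with the floor doubled, with log2(value + 16) in place of a floor and with the trend, 1 call with the filter at all 6 arrays, with body wall 1 and 2 averaged and with either block, and 1 to 2 with 1 array left out, where nab passed in place of vvl without body wall 3. The thoracic list gave 0 with the filter at all 6 arrays and 1 to 2 with 1 array left out, where sens also passed without body wall 2. The causes were not tested. With the title number as a replicate block 10 probe sets were called. The log2 differences of the 4 genes (0.01, -0.19, -0.55 and -0.60) cannot move under this block, since each number holds both fragments. Same-numbered arrays deviated together with correlations of 0.06, -0.16 and 0.19, and 2 of 6 arrays correlated best with their own number. With so few arrays this does not settle whether the numbers pair the samples.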
